A study of Mus musculus with 43 samples.

Results

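The 7 genes described here make the proteins that place the centromeric histone CENP-A into chromatin and hold on to it there. They are Hjurp, Cenpa, Mis18a, Oip5, Cenpc1, Cenpn and Cenpt. They were chosen by symbol for their known roles, and the group was picked from the fall of Hjurp RNA in oocytes without PRC1 catalytic activity, so the values of that contrast are given as a description and not tested. All 7 are listed in each of the 3 deposited tables, among 35815, 35842 and 35842 usable symbols, and all 7 passed the filter on low values in each table (a group mean that reaches 1), among 13376, 12873 and 13056 genes tested.

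RNA was measured in mouse full-grown oocytes and in morulae, the compacting embryos that precede the blastocyst. The first oocyte set holds 2 wild-type libraries (PRC1-WT) and 2 libraries with a catalytic-dead Polycomb repressive complex 1 (PRC1-CD). In that set, every library came from 10 pooled oocytes. The second set has 3 oocyte libraries each of wild type (WT), Pcgf1/6 double knockout (DKO) and Pcgf1/6 with Mll2 triple knockout (TKO). The morula set has 10 libraries for each of WT, maternal double knockout (matDKO) and maternal triple knockout (matTKO), the mother lacking the genes. The driver of the deletions, the age of the females and the number of oocytes or embryos per library in the second oocyte set and the morula set are not given in the sources used here, and nothing in the labels ties each replicate to an animal of its own. The p-values therefore reflect library-to-library spread, which may be technical. The second PRC1-CD library carries the tissue label embryo but the stage label of a full-grown oocyte.

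A centromere is marked not by its DNA sequence but by nucleosomes that carry CENP-A in place of ordinary histone H3. The chaperone HJURP carries new CENP-A with histone H4 to the centromere, after the Mis18 complex, which holds MIS18A and OIP5, has marked the site for loading. Inside the constitutive centromere-associated network (CCAN), CENP-C and CENP-N bind the CENP-A nucleosome directly, and CENP-C and CENP-T reach outwards to the kinetochore plate that catches microtubules. In mouse oocytes CENP-A placed early in life is known to be kept for long periods, whereas the cleaving embryo has to load it again in each cell cycle. PRC1 is the enzyme that ubiquitinates histone H2A at repressed genes. Its variant forms contain PCGF1 or PCGF6, while MLL2 (gene Kmt2b) adds methyl groups to histone H3 at lysine 4.

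The deleted genes followed their labels in the second set: Pcgf1 stood at 1077 to 1153 RPKM in WT and at 10.6 to 13.7 in DKO and TKO, and Kmt2b at 4.43 to 5.16 in WT and 1.04 to 1.31 in TKO. Pcgf6 RNA was lowered less, from 148 to 159 RPKM in WT to 55.1 to 60.3 in DKO and 61.9 to 81.6 in TKO. RPKM gives the reads of a gene per length of transcript and per size of the library. All 12 oocyte markers, such as the zona pellucida genes, averaged at least 1 RPKM in each oocyte group, and their summed level lay between 10578 and 15208. Of 12 granulosa and cumulus cell markers, 8 to 10 averaged below 1 RPKM in each oocyte group, Foxl2 and Amh among them. Cyp19a1 averaged at least 1 in each oocyte group, and Kitl in all but TKO. Inha reached 1 in PRC1-CD and DKO, and Fshr in PRC1-CD and TKO. Sequencing depth is unknown, and between 10902 and 13086 genes per library reached a value of at least 1.

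Annotated gene positions in GRCm38 spread over 5 chromosomes. Hjurp lies on chromosome 1 (88262471 to 88277633, minus strand), Oip5 on chromosome 2 (119609512 to 119618469, minus) and Mis18a on chromosome 16 (90719312 to 90727404, minus). Cenpa (30666777 to 30674830, plus) and Cenpc1 (86012024 to 86065583, minus) share chromosome 5. Cenpn (116921730 to 116941507, plus) and Cenpt (105844673 to 105853278, minus) share chromosome 8. Exons of Oip5 overlap those of Nusap1, a spindle gene on the opposite strand, over 172 bases. The libraries do not mark strand and Nusap1 averaged 253 RPKM in the second oocyte set, so the low level of Oip5 is uncertain.

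The promoters of all 7 members were matched in RefSeq (GRCm38.p6), as windows from 250 bases before to 50 after the start. The 3 windows printed here belong to Hjurp, the member with the largest difference in PRC1-CD, and to Cenpa and Cenpc1, the members that rose in DKO. Capitals mark the letters searched for on both strands. They were the cell cycle homology region of genes used late in the cell cycle, or CHR, with the letters TTTGAA, the CCAAT box, an E2F core, spelled as TTCCCGC, alternatively as TTCGCGC, alternatively as TTGGCGC, and the E-box, spelled as CACGTG. Each sequence runs 5′ to 3′ along the gene. The windows are chr1:88277530-88277829 (minus strand), chr5:30666636-30666935 (plus strand) and chr5:86065534-86065833 (minus strand).
Hjurp: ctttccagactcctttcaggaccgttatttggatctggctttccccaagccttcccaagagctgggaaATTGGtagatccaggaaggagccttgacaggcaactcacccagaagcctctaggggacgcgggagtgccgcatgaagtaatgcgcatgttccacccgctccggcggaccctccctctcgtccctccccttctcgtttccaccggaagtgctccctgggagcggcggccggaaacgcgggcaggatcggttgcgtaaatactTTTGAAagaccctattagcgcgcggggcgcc
Cenpa: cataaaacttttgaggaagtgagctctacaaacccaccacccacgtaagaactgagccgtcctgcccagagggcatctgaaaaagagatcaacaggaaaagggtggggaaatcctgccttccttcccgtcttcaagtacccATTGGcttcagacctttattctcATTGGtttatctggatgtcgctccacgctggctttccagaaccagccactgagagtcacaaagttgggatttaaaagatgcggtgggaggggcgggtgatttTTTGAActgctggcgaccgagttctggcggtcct
Cenpc1: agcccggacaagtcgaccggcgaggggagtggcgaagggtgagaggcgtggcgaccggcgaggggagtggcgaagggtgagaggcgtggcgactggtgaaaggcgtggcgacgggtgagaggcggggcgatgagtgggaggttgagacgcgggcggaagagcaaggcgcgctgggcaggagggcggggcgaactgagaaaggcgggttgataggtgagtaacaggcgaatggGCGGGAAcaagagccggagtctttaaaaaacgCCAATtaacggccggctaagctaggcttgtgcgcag

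The CHR letters were in 4 of 7 windows (Hjurp, Cenpa, Oip5 and Cenpn), against 17.9% of 32851 promoter windows of the same length. They began 19 bases after the start base in Hjurp and 16 after it in Cenpa. A CCAAT box was in 5 of 7 windows against 37.4% of all windows, with 4 copies in Oip5 and 2 in Cenpa. The E2F letters were in 2 windows, Cenpc1 and Cenpn, against 8.07% of all, and the E-box in 0 of 7 against 7.15%. The number of CpG pairs, the letters that KDM2B, a partner of PCGF1, binds when they are unmethylated, was 22 in Hjurp, 10 in Cenpa and 32 in Cenpc1, where the median of all windows was 7. Mis18a had 28, Cenpn 23, Oip5 21 and Cenpt 11. The matches describe these windows and are not evidence of binding.

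In WT oocytes of the second set the 7 RNAs ran from Cenpn at 275 ± 4.91 RPKM (SD, n = 3) down to Oip5 at 5.76 ± 1.63. Cenpn ranked 461 of 11439 genes with a mean of at least 1. Between them stood Mis18a at 99.0 ± 4.81, Cenpa at 69.9 ± 6.08, Hjurp at 44.2 ± 5.97, Cenpt at 10.4 ± 0.613 and Cenpc1 at 8.11 ± 0.814. No neighbours in this order overlapped, although the gaps at the bottom were narrow: the lowest Cenpc1 library read 7.45 and the highest Oip5 library 7.15. PRC1-WT oocytes, from the other table, gave the same order of the upper 5, and there Oip5 (8.06 and 8.50) and Cenpc1 (7.61 and 8.79) overlapped. Cenpn, whose protein reads CENP-A nucleosomes, thus gave the most abundant of the 7 RNAs per length, and the other CCAN members were among the 3 lowest.

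**Figure D1:**
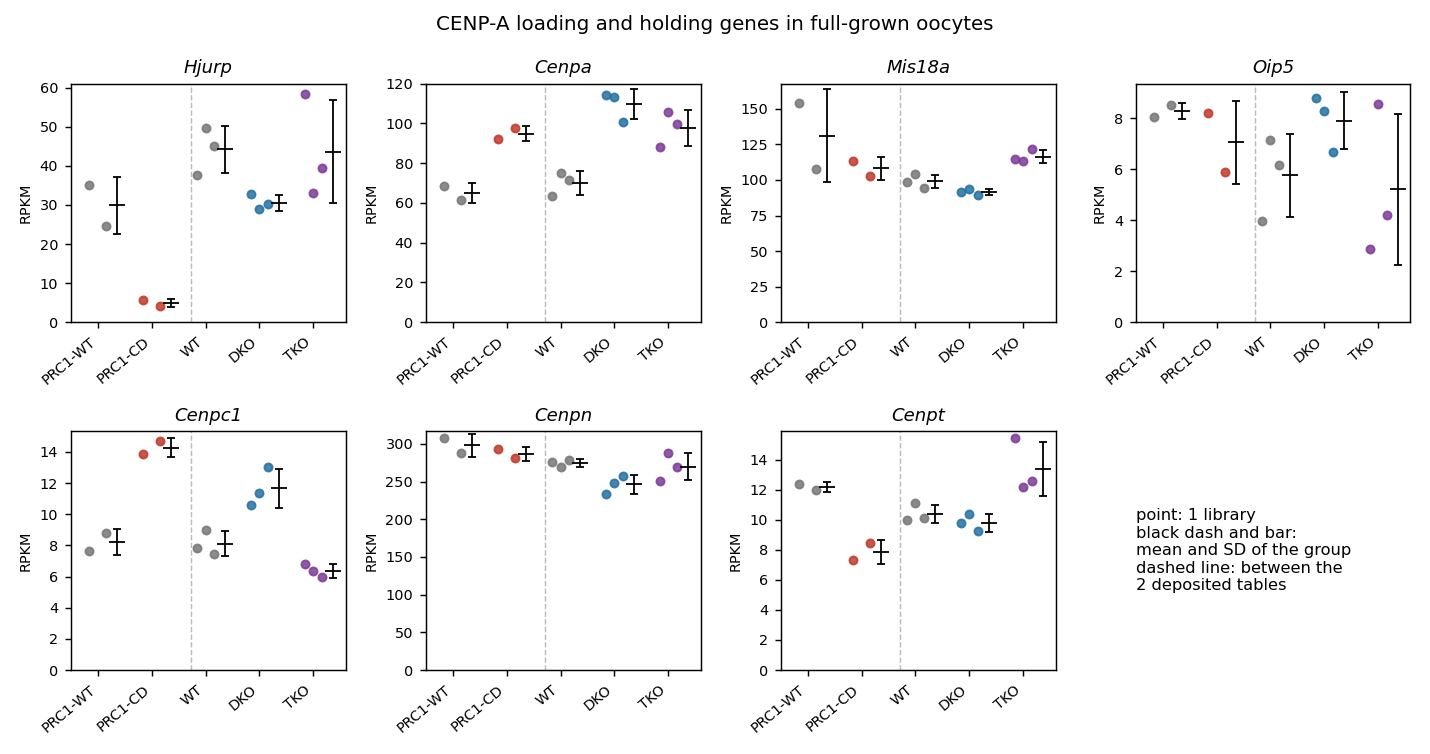
RPKM (vertical axis, linear from 0) of each member in each oocyte library, by group (horizontal axis), with the group mean and SD beside the points and a dashed line between the 2 tables. Hjurp sits at 4.24 and 5.69 in PRC1-CD against 24.7 and 35.1 in PRC1-WT, and Cenpa and Cenpc1 are higher in PRC1-CD and in DKO than in their controls.

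Hjurp, the CENP-A chaperone, is the gene the group was chosen on. It read 35.1 and 24.7 RPKM in PRC1-WT and 5.69 and 4.24 in PRC1-CD, a mean 6.02-fold lower (log2 difference -2.36 ± 0.23, SE, n = 2 each, on log2(RPKM + 1)). In PRC1-WT it ranked 3152 of 11739 genes with a mean of at least 1, and in PRC1-CD 7948 of 12929. Its place among the members moved from the fourth to the last.

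Its cargo had the opposite sign. Cenpa, the centromeric histone itself, read 68.6 and 61.5 RPKM in PRC1-WT and 92.1 and 97.5 in PRC1-CD (log2 difference 0.54 ± 0.15). Cenpc1, which encodes the CENP-A-binding CCAN hub CENP-C, read 7.61 and 8.79 against 13.9 and 14.7 (0.73 ± 0.17). Cenpt, the CCAN subunit that recruits the outer kinetochore, was lower, at 12.4 and 12.0 in PRC1-WT against 7.30 and 8.43 (-0.57 ± 0.17). The groups overlapped for the Mis18 subunits Mis18a (154 and 108 against 114 and 102) and Oip5 (8.06 and 8.50 against 8.21 and 5.90), and for Cenpn (308 and 288 against 294 and 281).

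So 2 of the 7 lay above the range of PRC1-WT, 2 lay below it and 3 overlapped it. The share of all genes with ranges apart was not computed. By a different measure, limma at an adjusted p under 0.05, 17.3% of all genes tested were called higher and 5.61% lower in this contrast. The counts of ranges cannot be set against those shares. Nothing is read from either, since the contrast chose the group. With quantile normalization the median difference of all genes moved from 0.04 to -0.08, and 1608 and 1538 genes were called higher and lower in place of 2309 and 750. The summed granulosa and cumulus markers were 35.0 and 40.2 RPKM in PRC1-CD against 18.8 and 20.3 in PRC1-WT, with 8 of 12 markers averaging below 1 in PRC1-CD. Of 10 morula markers, 6 averaged at least 1 RPKM in PRC1-CD and 4 in PRC1-WT, with sums of 79.7 and 79.8 against 42.0 and 48.8. A list of 5 genes of the early embryo, among them the Zscan4 genes, summed to 111 and 117 RPKM in PRC1-CD against 28.2 and 30.5. Of the morula markers, Nanog, Cdx2, Krt18 and Klf5 averaged below 1 in both groups, whereas Tead4 and Sox2 did so in PRC1-WT only. The part of these markers in the members' differences was not tested.

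DKO oocytes, which lack PCGF1 and PCGF6 and share no library with the first set, were compared with WT to ask what those forms of PRC1 contribute. Cenpa and Cenpc1 rose, and 5 members were not called. The background was 17.5% of 12873 genes called higher and 11.3% lower, or 1857 and 2065 genes with quantile normalization in place of 2251 and 1450. With 7 members, 2 higher and 0 lower is close to those shares.

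Cenpa read 63.3, 75.2 and 71.4 RPKM in WT and 114, 113 and 101 in DKO. The groups did not overlap, and the log2 change was 0.64 ± 0.09 (95% interval 0.44 to 0.85, limma adjusted p = 0.000710). Cenpc1 read 7.86, 9.02 and 7.45 in WT and 10.6, 11.3 and 13.1 in DKO, again without overlap (0.47 ± 0.11, interval 0.23 to 0.71, adjusted p = 0.00863). Both calls held in all 11 alternative fits.

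Hjurp read 37.8, 49.6 and 45.2 RPKM in WT and 32.8, 28.8 and 30.1 in DKO. Each DKO library was below each WT library, but the change of -0.51 ± 0.18 did not pass the test (interval -0.90 to -0.11, limma adjusted p = 0.0557). It passed with quantile normalization (adjusted p = 0.0475) and in a fit of the WT and DKO libraries alone (adjusted p = 0.00676), and its adjusted p ranged up to 0.171 over the 11 alternatives. The mean in DKO was 1.44-fold lower, whereas that in PRC1-CD was 6.02-fold lower. The difference between those 2 effects was not tested because the first chose the group.

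The other 4 members were not called in DKO. Mis18a read 91.6, 93.4 and 89.4 RPKM against 98.3, 104 and 94.6 in WT (log2 difference -0.11, adjusted p = 0.194), and Cenpn 233, 248 and 257 against 275, 269 and 279 (-0.16, adjusted p = 0.0924). For both, each DKO library was below each WT library. In the 2-group fit Cenpn passed as well (adjusted p = 0.0408), which made 4 members called in place of 2. Cenpt (-0.08 ± 0.10, interval -0.31 to 0.16) and Oip5 (0.42 ± 0.30, interval -0.24 to 1.08) overlapped WT, and the interval of Oip5 was the widest of the 7.

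TKO oocytes, which lack MLL2 as well, were compared with WT and with DKO. TKO and DKO share the WT libraries, and the comparison of TKO with DKO shares libraries with both. Against WT, Cenpa, Mis18a and Cenpt rose and Cenpc1 fell, and 3 members were not called. Of 12873 genes tested, 31.2% were called higher and 20.1% lower, which is 4013 and 2592 genes, or 3244 and 3085 with quantile normalization. Against DKO, Mis18a and Cenpt rose, Cenpc1 fell and 4 members were not called, where 26.8% and 21.8% of genes were called. The members' counts were not far from these shares.

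Cenpc1 had the largest difference between the knockouts with all libraries in, whereas Oip5 exceeded it without TKO replicate 2 (-0.98 against -0.78) and without DKO replicate 3 (-0.72 against -0.70). It read 6.79, 6.33 and 5.95 RPKM in TKO, below each WT library and each DKO library. The change from DKO was -0.78 ± 0.11 (interval -1.02 to -0.54, limma adjusted p = 0.000300) and held in all 11 alternatives. From WT it fell by 0.31 on the log2 scale (adjusted p = 0.0360), a call that held in 5 of 11 alternatives and was lost without WT replicate 1, without WT replicate 2, without TKO replicate 2 and without TKO replicate 3 (adjusted p = 0.0607 to 0.134), with no filter on low values (adjusted p = 0.0563) and with the replicate number as a block (adjusted p = 0.0628).

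Cenpa read 88.0, 106 and 99.9 RPKM in TKO, each above each WT library (0.48 ± 0.09, limma adjusted p = 0.00183), and overlapped DKO (-0.16 ± 0.09, interval -0.37 to 0.04, adjusted p = 0.167). Mis18a read 115, 113 and 122 RPKM, above each WT and each DKO library. Its changes were 0.23 ± 0.06 from WT (adjusted p = 0.00957) and 0.35 ± 0.06 from DKO (adjusted p = 0.00124). Both calls held in all 11 alternatives.

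Cenpt read 15.5, 12.2 and 12.6 RPKM in TKO, against 10.01, 11.1 and 10.1 in WT and 9.78, 10.4 and 9.23 in DKO. It rose from DKO by 0.41 ± 0.10 (limma adjusted p = 0.00895, held in all 11 alternatives). Its rise from WT (0.33 ± 0.10, adjusted p = 0.0229) held in 7 of 11, and was lost without WT replicate 1, without WT replicate 3 and without TKO replicate 1 (adjusted p = 0.0601 to 0.0748) and with quantile normalization (adjusted p = 0.0533). Without WT replicate 1 the members called against WT numbered 2 in place of 4.

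Hjurp was uneven in TKO, at 58.3, 33.1 and 39.5 RPKM, and overlapped WT (log2 difference -0.05 ± 0.18, interval -0.44 to 0.35, limma adjusted p = 0.840). Each TKO library was above each DKO library, and the difference of 0.46 ± 0.18 did not pass (adjusted p = 0.0538). Without TKO replicate 1, the highest, it was 0.24 (adjusted p = 0.147). Without TKO replicate 2, the lowest, it was 0.63 and passed (adjusted p = 0.00978), and 5 members were called against DKO in place of 3. Oip5 was uneven too, at 2.89, 8.54 and 4.19, with its highest value in the library where Hjurp was lowest. Cenpn (251, 288 and 270) overlapped WT.

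**Figure D2:**
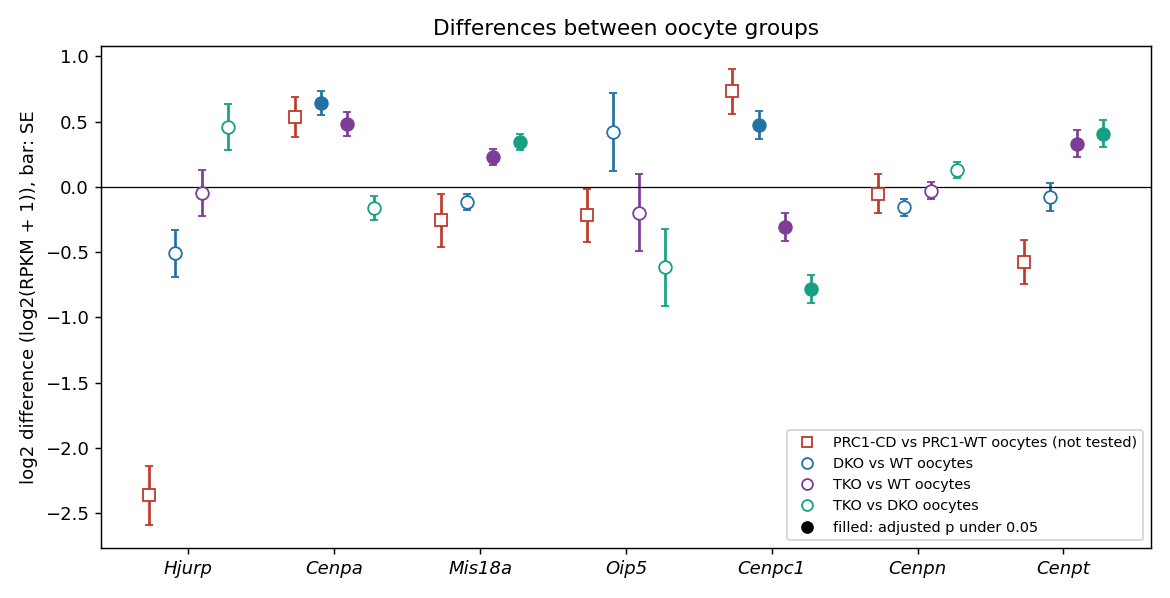
Log2 differences on the log2(RPKM + 1) scale (vertical axis, bars are SE) of the 7 members (horizontal axis) in the 4 oocyte comparisons; filled circles passed limma's test, open circles did not, and open squares (PRC1-CD) were not tested. Hjurp stands at -2.36 in PRC1-CD and -0.51 in DKO, and Cenpc1 at 0.47 in DKO and -0.31 in TKO.

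The RNA of the cargo relative to that of its chaperone was read within each library, as the ratio of the length-scaled levels of Cenpa and Hjurp. It was 1.95 and 2.49 in PRC1-WT and 16.2 and 23.0 in PRC1-CD. Hjurp, the lower term of the ratio, chose the group in that contrast. Those values therefore restate its fall in part and are a description only. In WT oocytes of the second set it was 1.68, 1.52 and 1.58, and in DKO 3.48, 3.94 and 3.35, each DKO library above each WT library. TKO libraries spread from 1.51 to 3.19 and overlapped WT at the lower end. In morulae the medians were 1.70 in WT, 1.88 in matDKO and 1.98 in matTKO, with ranges that overlapped throughout (0.698 to 6.04 over all 30).

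**Figure D3:**
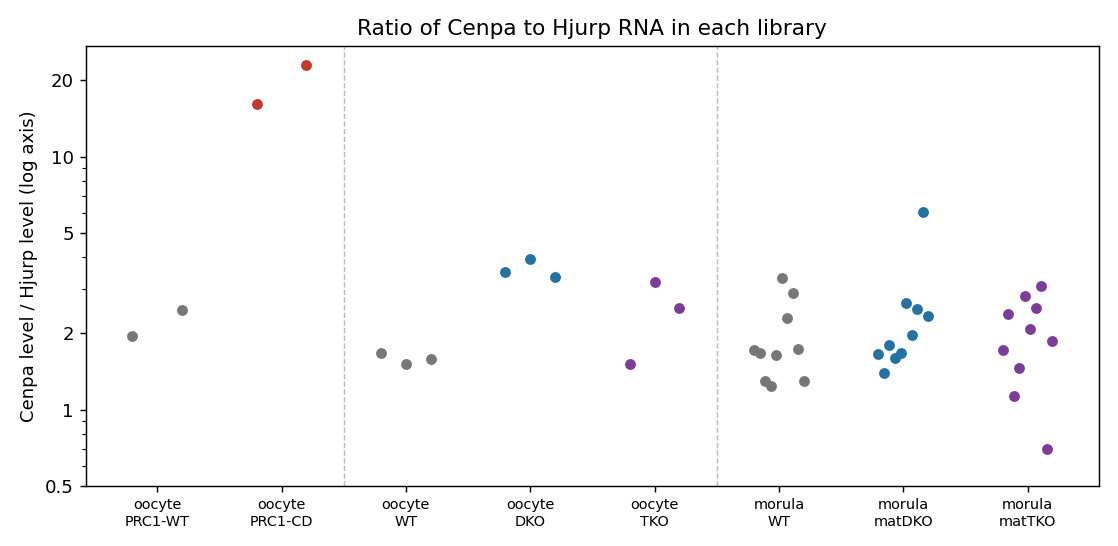
Ratio of the Cenpa level to the Hjurp level (vertical log axis) in each library, by group. The 2 PRC1-CD libraries, where the fall of Hjurp chose the group, stand at 16.2 and 23.0. DKO oocytes lie between 3.35 and 3.94, and WT oocytes between 1.52 and 1.68.

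Other genes of CENP-A deposition were read from a list that, without the members, held 9 genes, all tested. In DKO 2 rose and 0 fell, and in TKO 6 rose and 0 fell against WT. Beside these and the list counts that follow stand the shares over all genes, 17.5% higher and 11.3% lower in DKO and 31.2% higher and 20.1% lower in TKO. The median log2 difference was 0.35 in TKO, where that of all genes tested was 0.09. Rbbp4, a histone-binding protein that travels with H4, rose in TKO by 0.75 ± 0.08. Npm1, a nucleolar histone chaperone found with HJURP, rose by 0.20 ± 0.05 in DKO and 0.62 ± 0.05 in TKO. Rsf1, a subunit of a remodelling complex of centromeric chromatin, rose from 1.73 ± 0.135 to 3.47 ± 0.429 RPKM in DKO and 3.68 ± 0.242 in TKO.

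The CCAN without the 3 members had 13 genes, all tested. In DKO 2 rose and 4 fell (2 and 5 with quantile normalization), and in TKO 2 rose and 6 fell against WT. Cenpi, which helps recruit new CENP-A in a complex with CENP-H and CENP-K, had the largest changes: 8.28 ± 0.685 RPKM in WT, 13.0 ± 1.26 in DKO (log2 change 0.59 ± 0.15, limma adjusted p = 0.0136) and 1.42 ± 0.448 in TKO (-1.96 ± 0.15, adjusted p = 5.78e-06). In PRC1-CD it stood at 12.4 ± 0.453 against 8.40 ± 0.658 in PRC1-WT and was not called. Of these 13 genes 0 were called in that contrast, where 17.3% of all genes were called higher and 5.61% lower. Cenpi and Cenpc1 thus were both higher than WT in DKO and lower than WT in TKO. The fall of Cenpc1 in TKO was the smaller (-0.31) and was called in only 5 of 11 alternatives. Cenpk, the partner of Cenpi, fell from 132 ± 7.62 to 60.0 ± 8.91 in TKO (-1.13 ± 0.16), while Cenph rose by 0.29 ± 0.07. Itgb3bp, which encodes CENP-R, fell in TKO by 1.11 on the log2 scale. Stra13, which encodes the histone-fold protein CENP-X, and Cenpq fell in DKO by 0.43 and 0.45. Stra13 and Cenpp rose from DKO to TKO by 0.57 ± 0.07 and 0.38 ± 0.06.

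The outer kinetochore (KMN) list had 1 of 10 higher and 0 lower in DKO, and 0 higher and 5 lower in TKO against WT. Dsn1, of the MIS12 complex to which CENP-C binds, fell from 136 ± 3.41 to 97.6 ± 2.67 RPKM in TKO (log2 change -0.47 ± 0.06, limma adjusted p = 0.000102), and Zwint and Casc5, which encodes the scaffold KNL1, fell by 0.77 and 0.51. Spc25, of the NDC80 complex that CENP-T recruits, rose by 0.40 ± 0.11 in DKO and stood at 192 in both WT and TKO. In the passenger complex and centromere cohesion list 2 of 8 rose in DKO, and 2 rose and 2 fell in TKO (2 and 4 with quantile normalization). Aurkb, the kinase that corrects attachments in mitosis, rose by 0.74 ± 0.11 in DKO and 1.08 ± 0.11 in TKO. Its germline relative Aurkc rose by 0.45 ± 0.07 in DKO and fell by 0.22 in TKO, from 373 ± 11.1 to 321 ± 8.24 RPKM. Of 11 spindle checkpoint and corona genes, 0 rose and 2 fell in DKO, and 1 rose and 2 fell in TKO (1 and 5 with quantile normalization).

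Chaperones of the other forms of histone H3 were listed for comparison, and 12 of 13 were tested. In DKO 1 rose and 3 fell (0 and 4 with quantile normalization), and in TKO 4 rose and 1 fell. Atrx, which with DAXX places H3.3 at pericentric repeats, fell from 83.3 ± 2.11 to 42.9 ± 2.995 RPKM in DKO (log2 change -0.94 ± 0.08, limma adjusted p = 3.15e-05). It fell to 32.6 ± 2.90 in TKO. Nasp, a chaperone of the soluble H3 pool, fell by 0.31 in DKO and rose by 0.39 ± 0.06 in TKO. The G2/M genes, which peak in the same cell cycle phase as Hjurp and Cenpa, had 3 of 15 higher and 1 lower in DKO and 3 and 4 in TKO. Ccnb1, the cyclin of M phase, rose by 0.31 ± 0.09 in DKO and fell by 0.71 in TKO, and Ccna2 rose by 0.80 ± 0.07 in TKO. Their part in the members' differences was not tested.

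**Figure D4:**
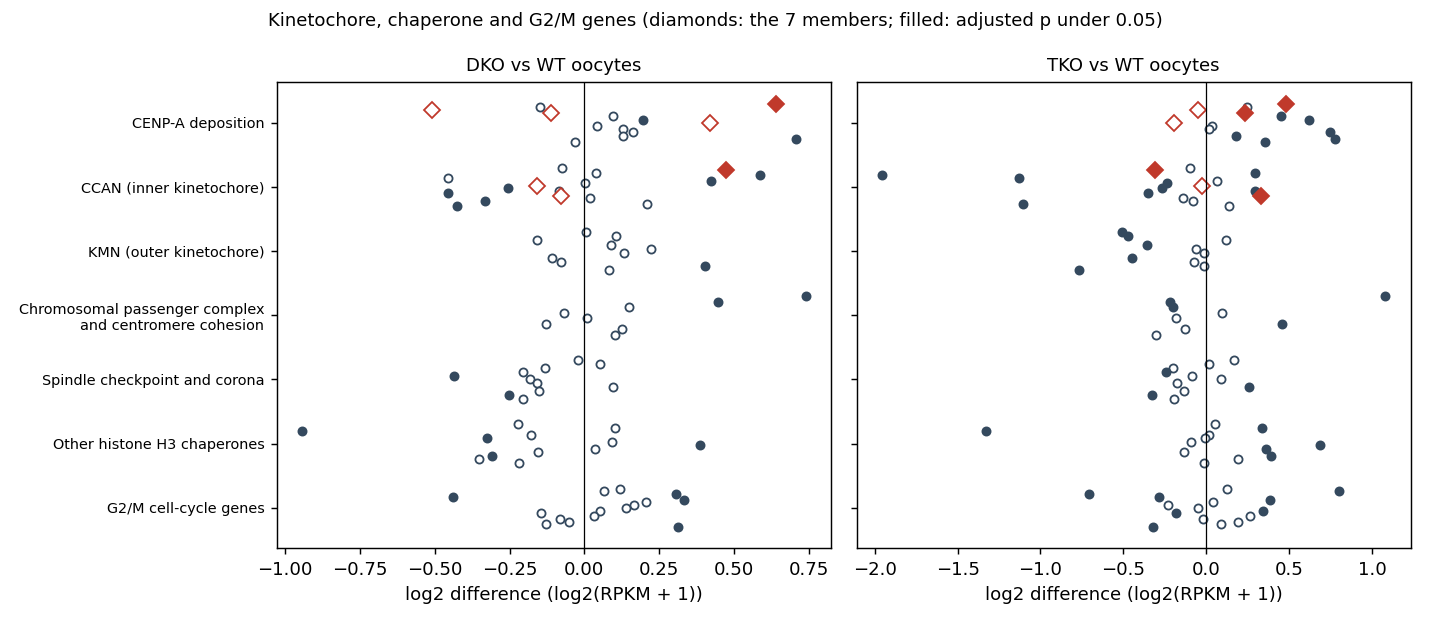
Log2 differences on the log2(RPKM + 1) scale (horizontal axes, which have different ranges) of the genes of 7 lists (vertical axis), DKO against WT on the left and TKO against WT on the right; diamonds are the members and filled symbols passed limma's test. In TKO the outermost CCAN point is Cenpi at -1.96, and 5 of 10 outer kinetochore genes are lower.

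Among 7494 genes with a mean of at least 5 RPKM over the 9 libraries of the second oocyte set, those most like Hjurp by Pearson's r of log2(RPKM + 1) were Rcan3 (r = 0.98), Zfp592 (0.97), Axin1 (0.97), Tbc1d1 (0.96) and Cit (0.96). With 9 libraries in 3 groups such values are only a ranking. Hjurp and Cenpa stood at r = -0.58 over these libraries and Hjurp and Cenpt at 0.64. Within groups, as deviations from group means, Hjurp and Cenpa stood at -0.29, Hjurp and Cenpt at 0.84 and Hjurp and Cenpn at -0.82. TKO replicate 1 had the highest Hjurp (58.3 RPKM) and Cenpt (15.5) and the lowest Cenpn (251) of its group. The part of that library in these values was not tested.

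Morulae were read as TPM, length-corrected values that add up to the same total in every library. For a view across stages the oocyte values were rescaled to the same total, and no test was made because the tables were normalised separately. Cenpa stood at 105 ± 9.07 TPM in WT oocytes (n = 3) and 202 ± 36.5 in WT morulae (n = 10). Hjurp was at 66.2 ± 8.93 and 114 ± 30.1, Oip5 at 8.62 ± 2.43 and 31.1 ± 8.23, and Cenpt at 15.6 ± 0.919 and 30.9 ± 8.66. Cenpn had the opposite order, 411 ± 7.24 in oocytes and 33.0 ± 5.79 in morulae, as had Mis18a (148 ± 7.25 and 65.3 ± 17.6) and Cenpc1 (12.1 ± 1.22 and 7.41 ± 2.13). The loader and its cargo thus held the upper places in morulae, whereas the most abundant member in oocytes ranked 3199 of 12229 genes there. Neighbours in the order Cenpa, Hjurp, Mis18a, Cenpn, Oip5, Cenpt overlapped in WT morulae, and Cenpc1 lay below the rest.

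Morulae from knockout mothers were compared with WT to ask what persists after fertilisation. In each of the 3 morula comparisons 0 of 7 members were called by limma, 0 passed at an unadjusted p under 0.05, and the ranges of all 7 overlapped. The background was low as well: 0.329% of 13056 genes were called higher and 1.41% lower in matDKO, 0.176% and 0.391% in matTKO, and 0.046% and 0.023% between them. With quantile normalization 103 genes were higher and 152 lower in matDKO, in place of 43 and 184, and 60 and 77 in matTKO, in place of 23 and 51. Because each library is scaled to the same total, neither the number of cells per embryo nor the RNA per cell can be read from these values.

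Hjurp ranged from 76.3 to 161 TPM in WT (median 119), from 32.8 to 133 in matDKO (median 94.4) and from 62.7 to 169 in matTKO (median 103). In matDKO 3 of 10 libraries were above the WT mean, and the log2 difference was -0.28 ± 0.21 (95% interval -0.70 to 0.14, limma adjusted p = 0.492). In matTKO it was -0.09 ± 0.21 (-0.51 to 0.33). The interval in matDKO thus holds both no change and the -0.51 measured in DKO oocytes.

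Cenpa ranged from 142 to 276 TPM in WT (median 200.3), from 159 to 231 in matDKO (median 200.2) and from 68.4 to 239 in matTKO (median 203), with log2 differences of -0.04 ± 0.16 (-0.36 to 0.28) and -0.08 ± 0.16 (-0.41 to 0.24). The 0.64 by which Cenpa rose in DKO oocytes lies outside the first interval. Cenpc1 had medians of 7.58, 6.56 and 8.95 TPM in WT, matDKO and matTKO, and differed between the mutants by 0.34 ± 0.17 (-0.01 to 0.69, limma adjusted p = 0.760). Mis18a stood at 65.3 ± 17.6, 55.9 ± 12.2 and 69.6 ± 15.4, and matTKO exceeded matDKO by 0.31 ± 0.16 (-0.02 to 0.64, adjusted p = 0.773). Means of the other 3 were between 29.3 and 35.5 in each group, Oip5 at 31.1, 30.8 and 35.5, Cenpn at 33.0, 29.3 and 34.9, and Cenpt at 30.9, 34.6 and 35.2. The summed markers of morula lineages had medians of 2943, 1953 and 1817 TPM in WT, matDKO and matTKO, and their part in these values was not tested. Of the kinetochore, chaperone and G2/M lists, 0 genes were called in any morula comparison.

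**Figure D5:**
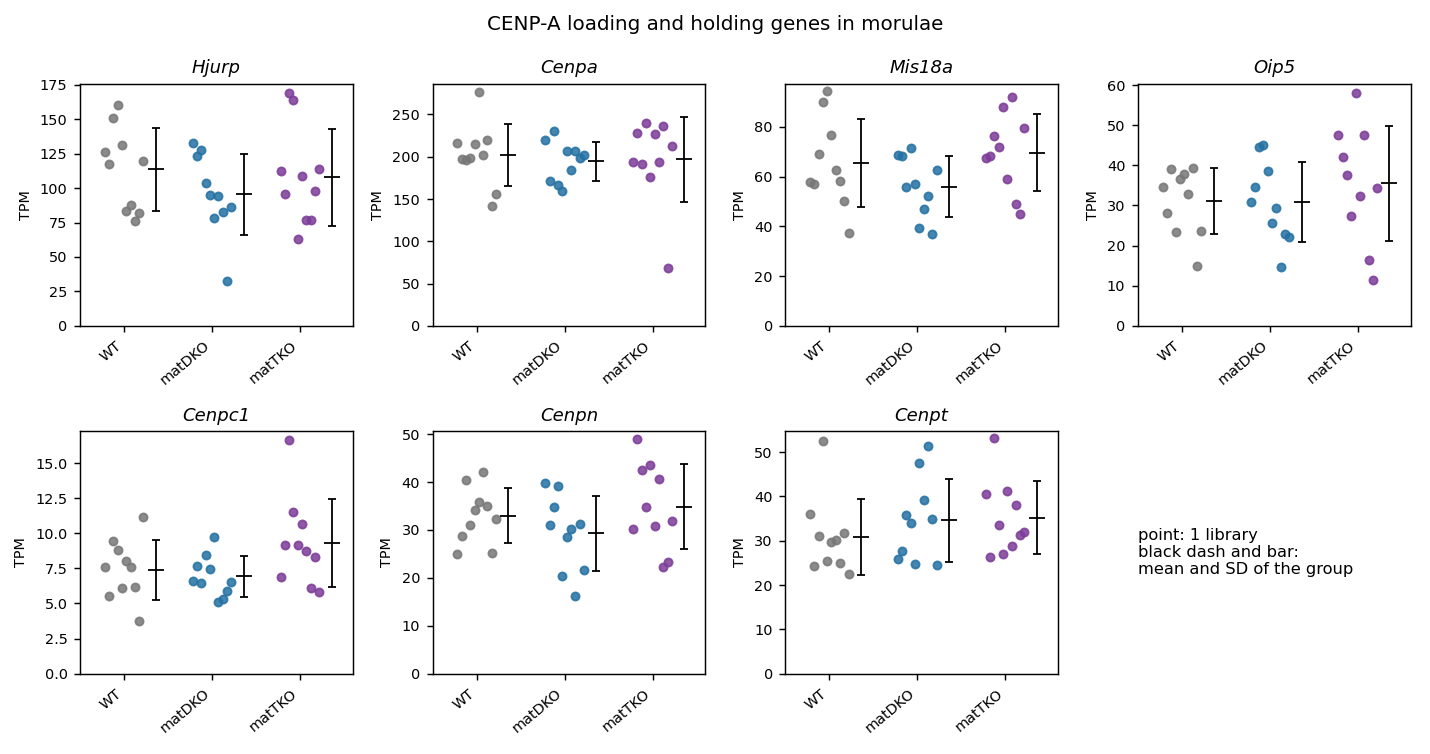
TPM (vertical axis, linear from 0) of each member in each of the 30 morula libraries, by group (horizontal axis), with the group mean and SD. The 3 groups overlap for every member, and single libraries stand apart, such as Cenpa at 68.4 in matTKO and Hjurp at 32.8 in matDKO.

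How the members moved together was read over the 30 morula libraries as deviations from group means. Of 21 pairs 18 had an r above 0, with a median of 0.17. The Mis18 subunit Oip5 stood closest to Cenpn (r = 0.70) and to its partner Mis18a (0.59), and Cenpa closest to Oip5 (0.44). Hjurp and its cargo Cenpa had an r of 0.05, and Cenpt had values below 0 with Oip5 (-0.24), Cenpn (-0.20) and Mis18a (-0.08). With the mean of 15 G2/M genes, Oip5 stood at 0.71, Mis18a at 0.61, Cenpc1 at 0.54, Cenpn at 0.53, Cenpa at 0.44, Hjurp at 0.42 and Cenpt at -0.04. Among the 15 is Nusap1, whose exons overlap those of Oip5, and the part of shared reads in the value of Oip5 was not tested. In matTKO replicate 9, Cenpa (68.4 TPM), Oip5 (11.5), Mis18a (45.1) and the summed G2/M genes (1186) were the lowest of that group. The part of that library in the r values was not tested. These libraries share their total by scaling, and the values are a description.

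Among 8164 genes with a mean of at least 5 TPM, those most like Hjurp over the 30 morulae were Myh9 (r = 0.93), Acaa1a (0.88), Efnb2 (0.86), Lrp10 (0.84) and Dlg1 (0.84). Those most like Cenpa were Gab1 (0.80), Psma7 (0.80), Ric8a (0.80), Mvb12a (0.79) and Gm14719 (0.78). Each of these had a lowest library far below its mean. In TPM, Gab1 had 0.08 against 16.3, Psma7 85.7 against 1107 and Ric8a 1.02 against 13.7. Mvb12a had 4.13 against 37.3 and Gm14719 3.46 against 44.2. Cenpa itself was at 68.4 in matTKO replicate 9, and the part of single low libraries in this ranking was not tested. By the same measure Cenpa was placed 5592 in likeness to Hjurp, and Mis18a 2373.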

How the data were processed

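RNA was measured in 43 libraries. Polyadenylated RNA was amplified with SMART-Seq v4 and tagged with Nextera XT, per the labels' protocols, and strand is not marked. STAR 2.7.3 and 2.7.6, RSEM 1.3.1, Trim Galore 0.6.4 and featureCounts 1.6.0 stand in the submitters' processing notes with the builds mm10 and GRCm38. Which of them made which table is not given in the sources used. The authors deposited RPKM values for both oocyte tables. The deposited morula table is titled RPKM, but its libraries sum to between 999421 and 999922, so its values were taken as TPM made by the authors; the oocyte libraries sum to between 622628 and 686687. Whole-read steps were not seen, so intervals from counting could not be given. From each of the oocyte tables, 27 symbols turned into dates were dropped.

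A limma fit per table (version 3.58.1, R 4.3.3, lmFit and eBayes with trend) was made on log2(value + 1) over all its groups and over every gene whose mean reached 1 in any group. The fit was tested on simulated data. A minimum recovery of the changed genes was required in the second oocyte set and in morulae, but not in the first oocyte set. Tests were two-sided, Benjamini-Hochberg adjusted over all genes, and called at an adjusted p under 0.05. This scale understates changes of low genes. Errors of log2 differences are SE and of levels SD. Oocyte TPM are RPKM divided by the library's sum. The labels do not say whether replicate numbers pair the samples, so the block is an alternative. Libraries of different groups were correlated over the genes tested, as deviations from group means. In morulae 13 of 30 same-numbered pairs had an r above 0.1, against 45 of 270 other pairs. In the second oocyte set these were 1 of 9 and 1 of 18. Pairing was not tested. The members and lists were chosen with earlier results of these data known. The text names all 7 members; from each list, those called with the up to 3 largest changes in each direction, not all of which are printed; and the 5 genes most like Hjurp or Cenpa. A result on 1 further gene is not reported here. Alternatives were a pseudocount of 0.1, no filter, quantile normalization, the replicate number as a block, the 2 groups alone, leaving out each oocyte library, and, chosen after seeing the data, leaving out matTKO replicate 9.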

Additional observations from a re-analysis of the deposited data

Results flagged for a closer look

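Of 21 sets of 10 morula libraries, 1 for each member and group, 3 had a library far from the other 9; chance gives about 1 in 20 such sets. Cenpt reached 52.5 TPM in WT replicate 4, where the next highest library was at 36.1. Cenpa was at 68.4 TPM in matTKO replicate 9, below the next at 176, and Oip5 was lowest of its group there as well, at 11.5. Cenpc1 reached 16.6 TPM in matTKO replicate 3, against 11.5 in the next.

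Oip5 lay below the PRC1-WT mean in both PRC1-CD libraries (log2 difference -0.22) and above the WT mean in all 3 DKO libraries (0.42). The first PRC1-CD library was close to that mean. Leaving out PRC1-CD replicate 2 made the difference -0.01, and leaving out replicate 1 made it -0.43. The difference in DKO was 0.21 without WT replicate 1. This opposite direction was not tested, the ranges overlapped in both sets, and Oip5 shares exonic bases with Nusap1.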

How the results depend on the processing

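No called difference of a member changed sign under any alternative run. Of the log2 differences recomputed for the members in DKO and TKO oocytes, 215 kept their side of the threshold, 10 lost a call and 6 gained one, and in morulae all 119 kept it. The members called in DKO numbered 4 in the fit of the 2 groups alone, against 2. Leaving out 1 library gave 2 to 3 members called in TKO against WT (4 with all libraries) and 3 to 5 in TKO against DKO (3 with all). In morulae 0 members were called under every alternative, also without matTKO replicate 9, where the log2 difference of Cenpa from WT was 0.08. The replicate number as a block left 2 members called in DKO against WT and 3 in TKO against DKO. In TKO against WT the block left 3 of 4, Cenpc1 being lost (adjusted p = 0.0628 from limma). Whether the numbers mark shared animals is not given in the labels.

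Counts over all genes moved more. In PRC1-CD, 3059 genes were called, and 1238 to 1543 when 1 of the 4 libraries was left out (1325 and 1238 when it was PRC1-WT replicate 1 or 2, and 1543 and 1352 when it was PRC1-CD replicate 1 or 2), where 1 group then has 1 library that is assumed to vary like the other. In DKO 3701 became 2421 without WT replicate 3. With the block 607 genes were called in matDKO (227 without it), 183 in matTKO (74) and 16 between them (9). With no filter these were 93, 32 and 5. The count in matTKO was 21 with a pseudocount of 0.1, 137 with quantile normalization and 127 with 2 groups alone, and between the mutants 4 with 2 groups alone. The cause was not tested. Depth is unknown, so what it limits cannot be given.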
